A study of Bos taurus with 2 samples.

Results

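The genes described here are nuclear genes for subunits of respiratory complexes III, IV and V, together with cytochrome c and the assembly factor TMEM70. They were 36 genes of the 16959 named on a bovine oligonucleotide array, chosen by name, with older and newer symbols both counted (ATP5F1 below is the older symbol of ATP5PB, and ATP5G2 that of ATP5MC2). Complex III was represented by 9 genes, complex IV by 10 and complex V by 16 including TMEM70, and cytochrome c by 1. On the array 101 probes carried one of these names, 82 of them through a RefSeq accession and 19 through the array's own gene name.

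The samples were total RNA from whole blood of Holstein cattle (Bos taurus), labelled with Cy3. A specimen of low feed efficiency and a specimen of high feed efficiency were hybridised to 1 array each. Feed efficiency was graded by residual feed intake, the feed eaten beyond what an animal's size and production call for, so the specimen of low efficiency has the high intake. Neither the age of the cattle nor the number of animals behind each specimen is given in the labels, and both arrays lay on the same slide and came from the same scan. With 1 array per group no difference has a replicate check, and no test or p-value is given.

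The respiratory chain of the inner mitochondrial membrane passes electrons from ubiquinol to oxygen and stores the energy as a proton gradient. Complex III, the cytochrome bc1 complex, hands electrons from ubiquinol to cytochrome c, and complex IV, cytochrome c oxidase, hands them on to oxygen. Complex V, the ATP synthase, lets protons flow back and uses that flow to make ATP. Mature red cells of mammals have no mitochondria, so transcripts of this machinery in blood come mainly from leukocytes, platelets and immature red cells.

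A signal is given as the background-subtracted pixel median of a spot divided by the 75th percentile of its array, which was an intensity of 98 in low against 81 in high feed efficiency. A probe counted as measured when it was above 10.9 intensity units on both arrays, a cut set by negative control spots. Each gene took the value of its brightest measured probe, and 10339 genes had one. Each difference is the log2 signal in low feed efficiency minus that in high, from which the median of all genes (-0.039) was then taken away, and is called a relative difference. Counts of genes 1.5-fold or 2-fold apart use the difference before that step. The levels of different genes are not compared, since each probe has its own brightness.

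All 36 genes were measured, each with a signal above the 75th percentile on both arrays, and 29 had a signal more than 10 times that percentile. Of the 101 probes 94 were measured, 5 were below background on both arrays, 1 (COX5A) was above it on 1 array only and 1 (UQCRB) was left out by its spot flag. No spot of these genes had saturated pixels. The brightest probe of COX4I1 read an intensity of 11622 in low against 10324 in high feed efficiency, and that of CYCS, the dimmest of the set, 133 in low and 105 in high.

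**Figure D1:**
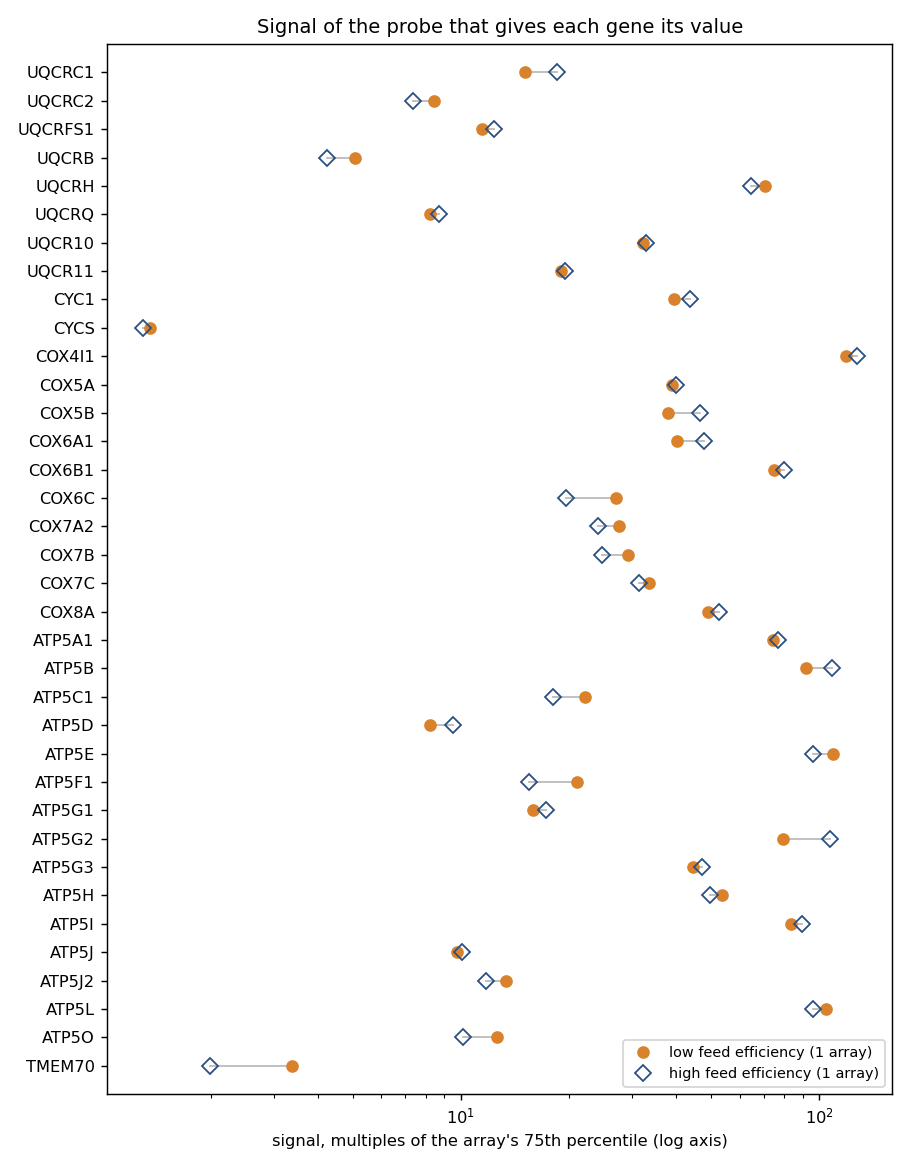
Signal of the probe that gives each of the 36 genes its value, in multiples of the array's 75th percentile on a log axis; filled circles are the low feed efficiency array, open diamonds the high feed efficiency array. The symbols of a gene lie close together for most genes, and the widest gap is that of TMEM70, at 3.39 in low against 1.99 in high feed efficiency.

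Set against the median of all genes, transcripts of complexes III to V were close to equal in low and high feed efficiency as a set. Of the 36 genes, 19 lay above and 17 below the median of all genes, where 50% of all genes lie above it by construction. Their median relative difference was 0.0025 and their mean was 0.073. Among the 6032 genes brighter than the 75th percentile, 46.3% lay above that median. At least 1.5-fold higher in low feed efficiency was 1 of the 36 genes, TMEM70, against 2.68% of all genes measured and 1.08% of the genes brighter than the 75th percentile. None was at least 1.5-fold lower, against 3.14% of all genes and 2.01% of the brighter ones. None was 2-fold apart, against 0.368% of all genes higher and 0.571% lower, and 0.116% of the brighter genes higher and 0.332% lower. A count of 1 in 36 is near the share of all genes. With scaling on spike-in controls, which moved every gene by 0.34 on the log2 scale, the count was 7 of 36 or 19.4%, against 16.2% of all genes and 7.87% of those brighter than 10 times the 75th percentile. It was 0 when only spots marked good were used, against 2.2% of all genes so measured.

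Brighter genes had slightly lower differences on these arrays. The 1729 genes with a signal above 10 times the 75th percentile had a median relative difference of -0.082, and 34.4% of them lay above the median of all genes. At least 1.5-fold higher were 0.231% of them and at least 1.5-fold lower 3.07%, and 0.174% were 2-fold lower. Their middle 90% ran from -0.48 to 0.34. COX6C, ATP5F1 and ATP5O lay above the upper of these bounds, none of the 36 lay below the lower, and TMEM70, which also lay above, is dimmer than this group. Of the 36 genes 29 were in this group. As a whole the 36 had a higher median than the group, at 0.0025. They also had a larger share above the median of all genes, at 52.8%.

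The 29 genes with several measured probes differed from each other by more than their own probes did. The SD of their gene values was 0.21 (0.25 over all 36 genes), and the SD over probes within a gene, pooled over these 29, was 0.12. Over the whole array the SD of gene values was 0.33, and that over probes within a gene was 0.25 for 4995 genes and 0.24 for the 3814 of them brighter than the 75th percentile. Replicate spots of one bright probe, over 12 such probes of the whole array, had an SD of 0.10. In 25 of the 29 genes every measured probe lay on the same side of the median of all genes, above it in 13 and below it in 12. The 2 brightest probes lay on the same side in 27 of 29 genes, or 93.1%, where 69.2% of the 4995 genes and 74.96% of the 1250 such genes brighter than 10 times the 75th percentile did so. Across the 29 genes the differences of these 2 probes had Pearson's r of 0.77 and Spearman's rho of 0.78, as a description, since all points share the same pair of arrays and their scaling. Probes of 1 gene read the same RNA from the same hybridisation, so they show that a reading repeats within an array, and stand for no further animal.

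**Figure D2:**
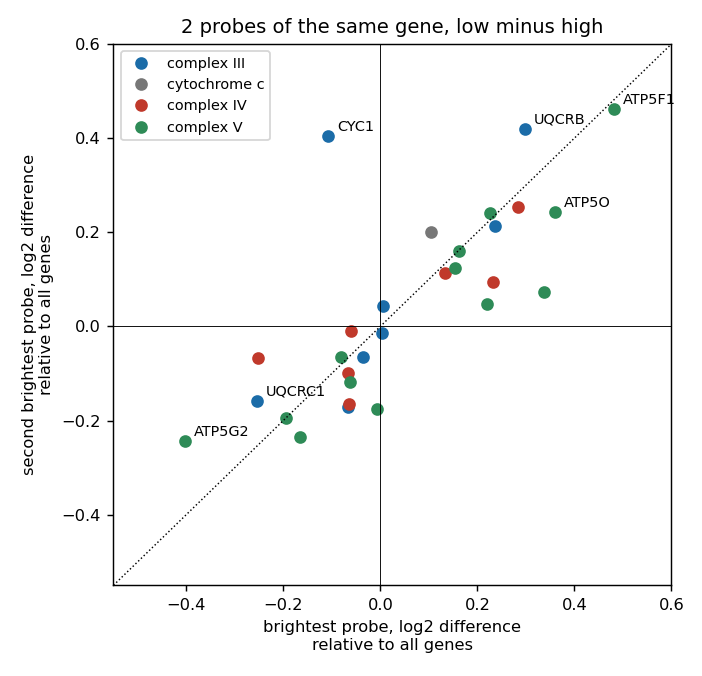
Relative log2 difference (low minus high feed efficiency) of the brightest probe on the x axis against that of the second brightest probe on the y axis, for the 29 genes with several measured probes, coloured by complex; the dotted line marks equal values. Points follow the line with r of 0.77, and CYC1 stands off it, with -0.11 at its brightest and 0.40 at its second probe.

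In complex III 5 of 9 genes lay above and 4 below the median of all genes, and the complex had a median relative difference of 0.0043. UQCRC1 and UQCRC2 encode the 2 large core proteins that face the matrix, and they lay on opposite sides. UQCRC1 had a signal of 15.1 in low against 18.5 in high feed efficiency, a relative difference of -0.26, with all 4 probes below 0 and between -0.26 and -0.053. Its other probes read 4.68, 1.11 and 0.755 in low and 5.37, 1.19 and 0.840 in high. UQCRC2 had 8.44 in low and 7.36 in high, a relative difference of 0.24, and 4 probes between 0.057 and 0.24. Its other probes read 3.44, 1.56 and 0.50 in low and 3.05, 1.37 and 0.494 in high. The probe sets of these partners did not overlap, and the highest UQCRC1 probe lay below the lowest UQCRC2 probe. That lowest UQCRC2 probe read an intensity of 49 in low and 40 in high with pixel SDs of 415 and 194, while the other 3 lay between 0.21 and 0.24. Replicate spots of dim probes, over 24 such probes of the whole array, had an SD of 0.23. How often the probes of a gene pair on the array separate in this way was not counted, here or for pairs named below.

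The nuclear genes of complex III for subunits with redox centres, UQCRFS1 and CYC1, were slightly lower in low feed efficiency by their brightest probe. Under other processing they took either side, UQCRFS1 from -0.17 to 0.084 and CYC1 from -0.15 to 0.0091. UQCRFS1, the Rieske iron-sulfur protein, had 11.5 in low against 12.4 in high feed efficiency, a relative difference of -0.067, and its other probes, at 10.1 and 6.05 in low and 11.7 and 7.43 in high, had -0.17 and -0.26. CYC1, cytochrome c1, had 39.3 in low and 43.5 in high, a relative difference of -0.11, but its other probes went both ways, with 0.40 (20.4 in low, 15.9 in high) and -0.36 (5.0 in low, 6.58 in high). The CYC1 probe above 0 was marked good on neither array, with a pixel SD of 909 at an intensity of 2002 in low and of 748 at 1285 in high. The probes of CYC1 thus gave it no single side.

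Among the small subunits of complex III, UQCRB, which lies next to the ubiquinone site, was farthest from 0. It had 5.05 in low against 4.22 in high feed efficiency, a relative difference of 0.30, and its second probe, at 3.78 in low and 2.90 in high, had 0.42. The UQCRB probe left out, on an expressed sequence tag, was flagged as not found on both arrays, at an intensity of 16 in low and 9 in high. The hinge protein gene UQCRH, whose product helps cytochrome c to dock, had 70.4 in low and 64.5 in high, a relative difference of 0.17 from a single probe. UQCRQ with -0.036, UQCR10 with 0.0054 and UQCR11 with 0.0043 were less than 1 replicate-spot SD from the median of all genes. Cytochrome c itself, the carrier between complexes III and IV encoded by CYCS, had 1.36 in low and 1.30 in high, a relative difference of 0.11, and 0.20 at its other probe.

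In complex IV 5 of 10 genes lay above and 5 below the median of all genes, and the complex had a median relative difference of -0.030. The genes named COX6C and COX7 made up 4 of the 5 above. COX6C, a small membrane-spanning subunit, had 27.2 in low against 19.6 in high feed efficiency, a relative difference of 0.51 from a single probe marked good on both arrays. Of all genes measured, 4.77% had a difference at least as high.

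The COX7 genes also encode small subunits of a single membrane helix each. COX7B had 29.3 in low against 24.7 in high feed efficiency, a relative difference of 0.28, and 0.25 at its other probe (25.2 in low, 21.7 in high). COX7A2, the isoform not confined to heart and muscle, had 27.6 in low and 24.1 in high, a relative difference of 0.23. Its other probes read 26.1 and 7.60 in low and 25.1 and 8.57 in high, so that the 3 ran from -0.13 to 0.23 and the dimmest was the one below 0. COX7C had 33.5 in low and 31.4 in high, a relative difference of 0.13, and its 3 probes lay between 0.11 and 0.32.

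The other subunits of complex IV lay near or below the median of all genes. COX5B, which binds zinc on the matrix side, had 37.9 in low against 46.4 in high feed efficiency, a relative difference of -0.25. All 5 measured COX5B probes were below 0, with 2 at -0.25 and -0.23 and 3 between -0.071 and -0.039. The other 4 read between 21.9 and 39.8 in low and between 23.1 and 42.8 in high, and a sixth probe was below background on both arrays. COX6A1 had 40.2 in low and 47.8 in high, a relative difference of -0.21 from 1 probe. COX8A had 48.9 in low and 52.6 in high, a relative difference of -0.066, with -0.099 at its other measured probe (43.8 in low, 48.1 in high).

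COX4I1, the common isoform of the subunit on which ATP acts as an allosteric inhibitor, had 119 in low against 127 in high feed efficiency. Its relative difference was -0.065, with all 4 probes below 0 and down to -0.31. COX6B1, on the side where cytochrome c binds, had -0.061 and 3 probes between -0.25 and -0.011.

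COX5A, the partner of COX4I1 in an early assembly step, had 38.9 in low against 39.9 in high feed efficiency, a relative difference of 0.00065. A further COX5A probe, designed on an expressed sequence tag, read an intensity of 0 in low and 207 in high, a bound of at least 22.8-fold lower in low than in high. The spot in high feed efficiency had a pixel SD of 15282 and was not marked good, and that in low feed efficiency was flagged as not found. The part of uneven pixels in this reading was not tested, and the value of COX5A does not rest on it.

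**Figure D3:**
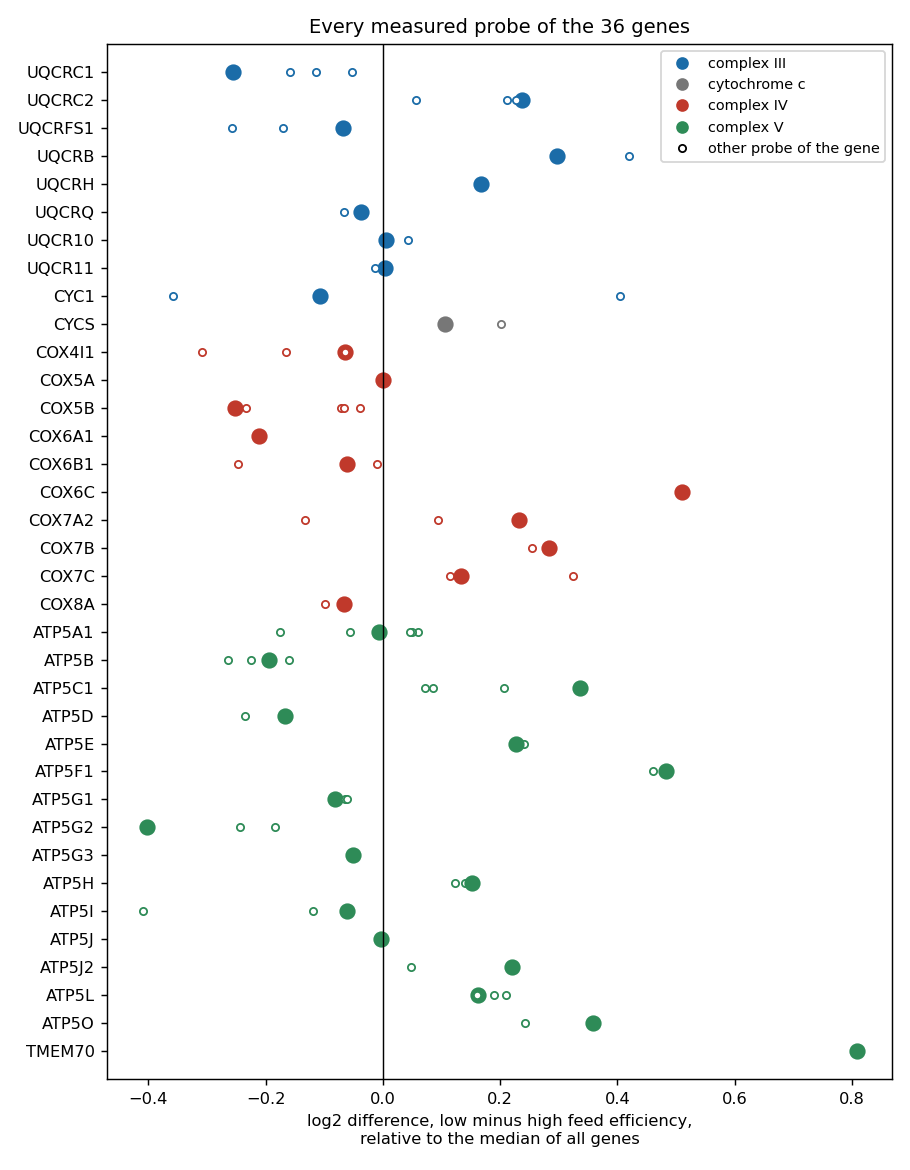
Relative log2 difference (x axis) of every measured probe of the 36 genes, with large filled circles for the probe that gives the gene its value and small open circles for the gene's other probes, coloured by complex. Probes of one gene mostly cluster, as in ATP5L between 0.16 and 0.21 and ATP5B between -0.26 and -0.16, while TMEM70 stands farthest to the right at 0.81.

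Complex V had 8 of 16 genes above and 8 below the median of all genes, a median relative difference of 0.075, and the widest spread of the 3 complexes, with an SD of 0.30 against 0.24 in complex IV and 0.18 in complex III. Without TMEM70, which assembles the complex and is no part of it, 7 of 15 genes lay above, the median was -0.0025 and the SD was 0.24. The median of complex V was then below that of complex III. With spots marked good only, where TMEM70 has no value, the medians were -0.0031 in complex V, -0.031 in complex IV and -0.014 in complex III.

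The catalytic head of ATP synthase is built from alpha and beta subunits. ATP5A1, the alpha subunit, had 74.3 in low against 76.7 in high feed efficiency, a relative difference of -0.0062, with 3 of 6 probes on each side and a range from -0.17 to 0.060. ATP5B, the beta subunit that holds the catalytic sites, had 92.2 in low and 108 in high, a relative difference of -0.19. All 5 ATP5B probes were below 0, between -0.26 and -0.16, and their signals ran from 1.55 to 92.2 in low and from 1.91 to 108 in high. The brightest was not marked good on either array, and the next, at 87.6 in low and 103 in high, had -0.20.

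In the central stalk, which turns inside the head, 2 of 3 genes lay above the median of all genes. ATP5C1, the gamma subunit, had 22.2 in low against 18.1 in high feed efficiency, a relative difference of 0.34, and 4 probes between 0.072 and 0.34. ATP5E, the epsilon subunit, had 110 in low and 96.2 in high, a relative difference of 0.23, and 0.24 at its other measured probe. ATP5D, the delta subunit, went the other way, with 8.22 in low and 9.48 in high, a relative difference of -0.17, and -0.24 at its other probe (2.89 in low, 3.49 in high). Both ATP5E and ATP5D readings repeated across their probes.

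The peripheral stalk holds the head still against the turning stalk, and ATP5F1 and ATP5O of its genes had the highest values among the subunits of complex V. ATP5F1, subunit b, had 21.1 in low against 15.5 in high feed efficiency, a relative difference of 0.48. Its second probe, at 8.47 in low and 6.32 in high, had 0.46. Of all genes measured, 5.53% had a difference at least as high as that of ATP5F1.

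ATP5O, which caps the head as the oligomycin sensitivity conferring protein, had 12.7 in low against 10.1 in high feed efficiency, a relative difference of 0.36, and 0.24 at its other probe (8.74 in low, 7.59 in high). ATP5H, subunit d, had 53.7 in low and 49.7 in high, a relative difference of 0.15, and 3 probes between 0.12 and 0.15. ATP5J, the coupling factor subunit, had 9.78 in low and 10.1 in high from 1 probe, a relative difference of -0.0025. Of these 4 genes 3 lay above the median of all genes, and their median was 0.26.

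The rotor ring that proton flow turns is made of subunit c, for which 3 genes encode the same mature protein with different import sequences. All 3 lay below the median of all genes, and all 3 were bright. Of the genes brighter than 10 times the 75th percentile, 34.4% lay above the median of all genes, and their own median was -0.082. ATP5G2 had 79.1 in low against 107 in high feed efficiency, a relative difference of -0.40, the lowest of the 36 genes. Its other probes read 75.8 and 65.6 in low and 92.3 and 76.5 in high, all 3 lay between -0.40 and -0.18, and 7.63% of all genes measured had a difference at least as low. ATP5G1 had 15.9 in low and 17.3 in high, a relative difference of -0.081, and 3 probes between -0.081 and -0.060. ATP5G3 had 44.3 in low and 47.2 in high, a relative difference of -0.051 from 1 measured probe. The brightest ATP5G1 and ATP5G3 probes lay within 1 replicate-spot SD of the median of all genes. Whether the probes tell these similar transcripts apart was not tested.

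Small membrane subunits that help ATP synthase to form dimers were mixed. ATP5J2, subunit f, had 13.4 in low against 11.8 in high feed efficiency, a relative difference of 0.22, and 0.048 at its other probe. ATP5L, subunit g, had 104 in low and 95.9 in high, a relative difference of 0.16, and 4 probes between 0.16 and 0.21. ATP5I, subunit e, had 83.5 in low and 89.5 in high, a relative difference of -0.062, and its 3 probes ran from -0.41 to -0.062. Subunits e and g are partners in the membrane, and all 3 ATP5I probes lay below all 4 ATP5L probes. The probes of ATP5A1 and ATP5B, partners in the head, overlapped in range.

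TMEM70, an inner membrane protein needed to assemble ATP synthase, had the highest difference of the set. Its signal was 3.39 in low against 1.99 in high feed efficiency, an intensity of 332 against 161, which is a 1.70-fold difference and a relative difference of 0.81. Of all genes measured, 1.01% had a difference at least as high. A single probe carries this value, since the other TMEM70 probe was below background on both arrays. The spot in high feed efficiency was not marked good and had a pixel SD of 117, against 76 on the spot in low feed efficiency. When spots marked good on both arrays were required, TMEM70 had no value.

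**Figure D4:**
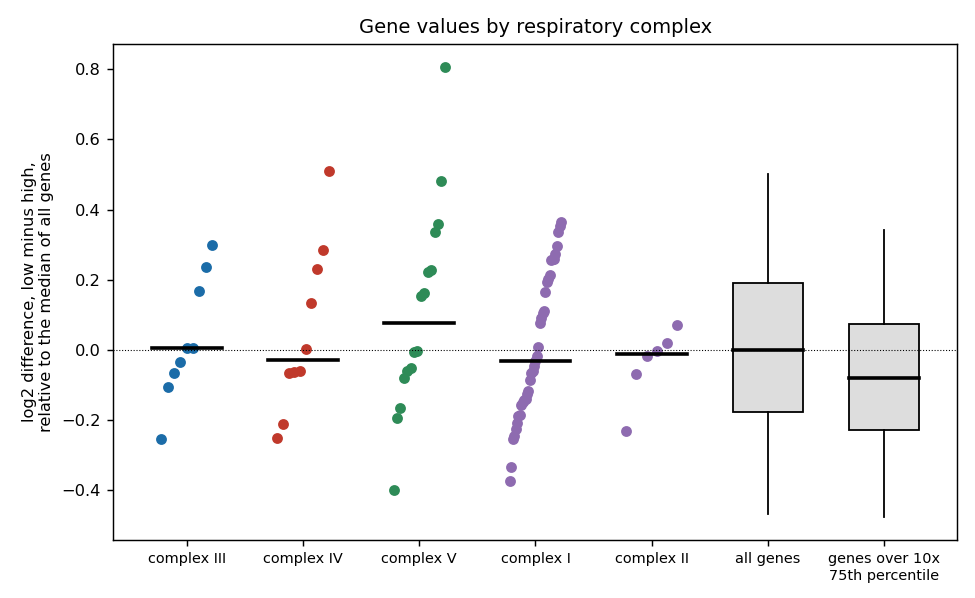
Relative log2 difference, low minus high feed efficiency (y axis), of each gene of complexes III, IV and V and of the listed genes of complexes I and II, points sorted by value within a complex with a bar at the median, beside boxes for all 10339 genes and for 1729 bright genes (line at the median, box from the 25th to the 75th percentile, whiskers from the 5th to the 95th percentile). Complexes III, IV and V have medians of 0.0043, -0.030 and 0.075, all within the box of all genes. The complex II points include the assembly factors SDHAF1 and SDHAF2.

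Other genes of the pathway gave a like picture. Complex I, which feeds electrons from NADH into the chain, had all 37 listed subunit genes measured, with 17 above and 20 below the median of all genes and a median of -0.031. NDUFS8 was farthest, at 29.8 in low against 39.8 in high feed efficiency, a relative difference of -0.38. Complex II was listed together with its assembly factors SDHAF1 and SDHAF2. It had 2 of 6 genes above, the subunit gene SDHD at 0.020 and SDHAF1 at 0.069, and a median of -0.011. SDHB, its iron-sulfur subunit, was farthest at -0.23 (4.41 in low, 5.32 in high). None of these complex I and II genes was 1.5-fold apart.

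Assembly factors other than TMEM70 were all less than 1.5-fold apart where measured. Of 26 listed for complex IV, 19 were measured, 12 lay above the median of all genes and the list median was 0.062. COA6, which takes part in delivering copper to complex IV, was farthest with 2.14 in low against 1.44 in high feed efficiency, a relative difference of 0.61 (0.57 before the median of all genes was taken away). All 6 factors of complex III were measured, 2 of them above, with a median of -0.052 and LYRM7, which handles the Rieske protein, farthest at 0.40 on a dim signal of 0.490 in low and 0.383 in high. For complex V 6 of 7 were measured, 3 above, with a median of -0.043 and DMAC2L farthest at 0.26, on a signal of 0.245 in low and 0.210 in high.

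Of 11 listed names for other subunits and tissue isoforms of complexes IV and V, 8 were measured, 5 of them above the median of all genes, with a median of 0.070. The name C14orf2, which carried no probe, is an older symbol of ATP5MJ, which was measured. COX8B, the heart and muscle counterpart of COX8A, was farthest at -0.47 on a signal of 0.796 in low against 1.14 in high feed efficiency, with -0.88 at its other measured probe. Of 12 regulators of mitochondrial biogenesis 8 were measured and 6 lay above, with a median of 0.084. PPRC1, a coactivator of that program, was at least 1.5-fold lower, as were 3.14% of all genes measured. Its relative difference was -0.72 from 1 measured probe of 5, on a dim signal of 0.153 in low and 0.259 in high.

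Markers of blood cell types differed between the 2 specimens and are given beside these results. Of 9 measured neutrophil markers 6 lay above the median of all genes, with a list median of 0.14 and a summed signal of 801 in low against 707 in high feed efficiency. All 7 measured natural killer and cytotoxic cell markers lay below it, with a median of -0.34 and a sum of 202.5 in low and 263 in high. T cell markers summed to 268 in low and 323 in high (3 of 11 above, from -0.37 to 0.83 in IL7R). B cell markers summed to 68.0 in low and 72.2 in high (3 of 8 above, from -0.51 to 0.30). Monocyte markers summed to 305 in low and 349 in high (2 of 7 above, from -0.82 in CSF1R to 0.35). Erythroid markers summed to 513 in low and 445 in high (3 of 6 above, from -1.38 in ALAS2 to 0.36) and platelet markers to 294 in low and 285 in high (3 of 7). These sums are led by a few bright probes. S100A12 made up 498 of the neutrophil sum in low and 427 in high, and HBA, a globin, 272 of the erythroid sum in low and 248 in high. Without its brightest gene the neutrophil sum was 303 in low and 281 in high and the erythroid sum 241 in low and 198 in high. The monocyte sum without FCN1 turned to 153 in low and 145 in high, and the platelet sum without GNG11 to 139 in low and 152 in high, while the T cell, B cell and cytotoxic sums without theirs were lower in low feed efficiency, as the full sums were. Markers of each listed blood cell type were thus measured on both arrays, and single ones with no measured probe were SLC4A1, EPB42, CA1 and KLF1 of the erythroid list, GP9, GP1BB and GP5 of the platelet list, GZMK and KLRD1 of the cytotoxic list, and CAMP. In a mixed tissue fewer cells of a type and less RNA per cell cannot be told apart, and the part of cell make-up in the differences above was not tested.

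The side of the median on which a gene lay held for 22 of the 36 genes under all 12 alternatives that could change it and in which they had a value. The other 2 of the 14 alternatives, scaling on spike-in controls or on the median of measured probes, shift all genes alike and leave relative differences as they are. Of the 12, those on dim probes, spot flags and saturation each moved nearly all of the 36 genes alike by a small amount. They could turn only genes very close to 0. COX6C, 0.51 as reported, was 0.52 with a filter at 10 robust SDs and 0.50 with no filter on dim probes. The 22 were 16 genes above and 6 below. Above were UQCRC2, UQCRB and UQCRH of complex III, CYCS, the 4 genes COX6C, COX7A2, COX7B and COX7C of complex IV, and 8 genes of complex V, namely ATP5C1, ATP5E, ATP5F1, ATP5H, ATP5J2, ATP5L, ATP5O and TMEM70. Below were UQCRC1, COX5B, COX6A1, ATP5B, ATP5D and ATP5G2. The other 14 took either side, all of them with a relative difference between -0.11 and 0.0054 as reported. The same count was not made over all genes, so 22 of 36 has no share to be read beside. Normexp, loess and quantile normalization each raised the medians of complexes III, IV and V. Genes slightly below 0 could thus cross it more easily than genes above, and the split of 16 against 6 is no measure of an excess above.

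Across the alternatives COX6C kept a relative difference between 0.47 and 0.59, ATP5F1 between 0.47 and 0.55, ATP5G2 between -0.41 and -0.27, and TMEM70 between 0.72 and 1.17 where it had a value. The median of each of complexes III, IV and V took either sign, from -0.014 to 0.081 in complex III, from -0.045 to 0.085 in complex IV and from -0.0031 to 0.18 in complex V.

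**Figure D5:**
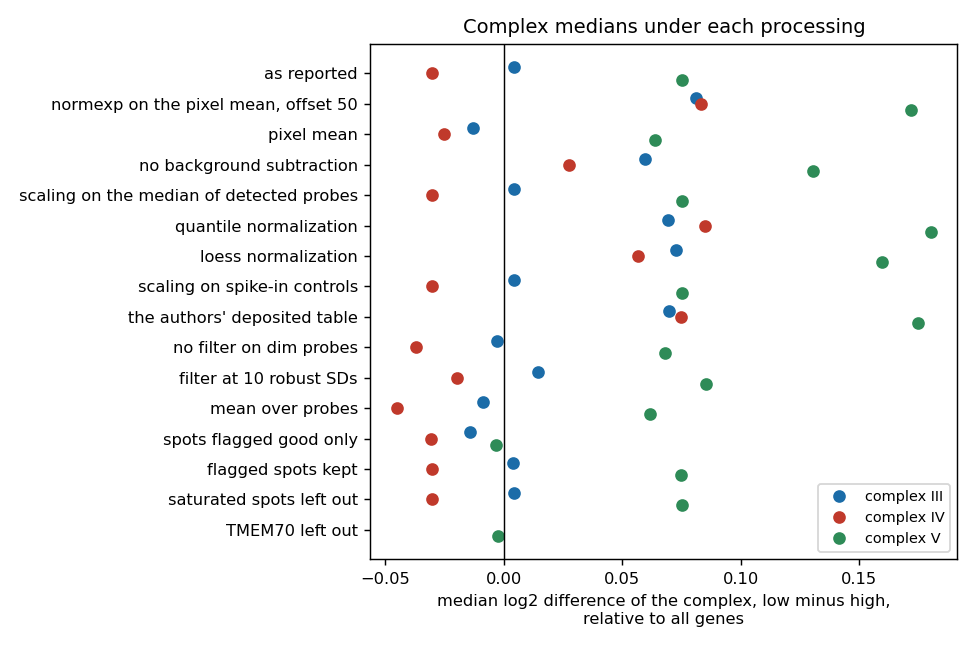
Median relative log2 difference, low minus high feed efficiency, of complexes III, IV and V (x axis) as reported and under each alternative processing (rows); the lowest row, with TMEM70 left out, applies to complex V alone. Complex V lies to the right of the others wherever all 3 are drawn, with 0.075 as reported, and at -0.0025 without TMEM70.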

How the data were processed

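The scanner files hold spot intensities at 532 nm, deposited by the authors and written by GenePix Pro 6.1.0.4 per the file headers, while Agilent Feature Extraction is the tool named in the submitters' processing notes. The intensity used here is the pixel median less the mean of the negative controls, a subtraction recorded in the deposited files' headers. For each spot a flag score (good, unflagged or not found) and the percent of its pixels at saturation were read from the deposited files too. The authors also deposited log2 values per probe. As deposited these had Spearman's rho with the intensities of 0.077 (low) and 0.072 (high), and of 1.00 in both after a shift of 1 row, and they served as an alternative after that shift.

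Of 43803 probe spots, those above background but flagged as not found were left out (408 in low, 283 in high feed efficiency). Background was the median of the negative controls plus 3 robust SDs, and 22000 probes passed on both arrays. Scaling used the 75th percentile of each array over its probes, followed by log2. Probes were named by RefSeq accession, symbol or synonym with a gene table of the assembly ARS-UCD2.0. The number of arrays limits the precision.

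All 36 genes were accounted for. Full values went to genes 1.5-fold apart, to the 3 farthest on each side of each complex and to genes with a probe 2-fold apart, and in each other pathway list the farthest gene was named. Members and lists were chosen with earlier results of these data known. The calculation was tested on simulated data. Alternatives covered background correction (normexp on the pixel mean in limma 3.58.1 among them), normalization (loess in statsmodels 0.14.6 among them), dim probes, spot flags, saturation, the summary over probes and the fold threshold. Sequences of genes, proteins and probes were not used here.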

Additional observations from a re-analysis of the deposited data

How the results depend on the processing

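The medians of the complexes, the counts of genes 1.5-fold apart and the values of the 36 genes were recomputed under 14 other processing settings, 2 of which shift all genes alike and so cannot change a relative difference. Other gene lists, probe agreement and SDs were not recomputed. A value counted as stable when it moved by less than the replicate-spot SD of 0.10. The median of complex III stayed within that under the other 12. The median of complex IV, -0.030 as reported, was 0.083 with normexp on the pixel mean with an offset of 50. It was 0.085 with quantile normalization and 0.075 in the authors' deposited table. The median of complex V, 0.075 as reported, was 0.18 with quantile normalization. Moves within that SD took it to 0.175 in the authors' deposited table and 0.17 with that normexp setting. They also gave 0.16 with loess normalization and 0.13 without background subtraction. With spots marked good only, where TMEM70 drops out, the median of complex V was -0.0031. Leaving TMEM70 out, chosen after seeing the data, gave -0.0025. The count of genes at least 1.5-fold higher, 1 as reported, was 7 with scaling on 7 spike-in controls, which moved all genes by 0.34 (16.2% of all genes were then as high), 0 with spots marked good only, and 0 at a 2-fold threshold; no gene was 1.5-fold lower under any of them. Single genes moved by more than 0.10 for 18 of 36 with that normexp setting, 11 with quantile normalization, 10 in the authors' deposited table, 7 with the mean over probes and 1 with the pixel mean, and for none under the others. The cause of these shifts was not tested. TMEM70 and CYCS had the dimmest signals, and TMEM70 rests on 1 probe. No paired analysis was possible because each group has 1 array.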

Other observations

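The mitochondrial genome encodes further subunits of complexes III to V, and the array carried probes for 6 such genes, known by the description given with each probe and chosen after seeing the data. By their brightest probes 2 genes lay above and 4 below the median of all genes measured, with a median of -0.063, and 5 of 17 probes lay above it. Most of these signals were bright. Of the genes brighter than 10 times the 75th percentile, 34.4% lay above the median of all genes, and their own median was -0.082. COX1, the catalytic subunit of complex IV, had a signal of 323 in low against 283 in high feed efficiency and 0.23 at both probes. COX3 had 493 in low and 561 in high, with 3 probes between -0.20 and -0.15, and COX2 had 315 in low and 311 in high, with 3 probes between 0.011 and 0.059. CYTB, cytochrome b of complex III, had 5 probes between -0.18 and -0.049. In complex V ATP6 had 3 probes between -0.27 and -0.062, and ATP8 had -0.45 from 1 probe, at 9.11 in low and 12.8 in high. COX1 and COX3, core subunits of the same enzyme, thus lay on opposite sides in every probe.

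A pair of probes described on the array as cytochrome c oxidase subunit VIIb, the product of COX7B, carried no gene name and stood outside the set. They read 61 and 42 intensity units in low and 52 and 36 in high feed efficiency, with relative differences of -0.0055 and -0.013, while the named COX7B probes had 0.28 and 0.25 at much brighter signals.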
